A study of Mus musculus with 7 samples.

Results

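Neural progenitor cells (NPC) shared 4322 open autosomal sites with male stem cells whose counterparts were missing from the reproducible peak list of female embryonic stem cells (mESC). They were chosen from the 39692 peaks of wild-type NPC on the 19 autosomes. A site was taken if it overlapped, by at least 1 bp, a peak of deltaFT NPC and a peak in each of 4 lists of male mESC (TXY), but no peak of the mESC list. These 4322 sites are 10.9% of the wild-type NPC peaks (95% interval 10.6% to 11.2%). Presence in these lists chose the sites, so presence itself is a description and no finding.

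Open chromatin was measured by ATAC-seq, in which the Tn5 transposase inserts sequencing adapters where DNA is accessible. Accessible sites away from packed nucleosomes include promoters, enhancers and sites bound by structural factors. Many regulatory sites of neural cells open only on differentiation, while others are already accessible to some degree in pluripotent cells. An overlap of peaks means that DNA was called accessible in both cell types, and not that the site was active in either. Some of the TXY calls were weak.

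The series held 7 samples, 1 per group. The deltaFT NPC (line sgdgb2), the wild-type NPC (line C2) and the wild-type mESC (line F1216) were female cells of a 129S1 x Cast:EiJ cross, each a single line. The NPC grew in N2/B27 medium with FGF and EGF, and the mESC in serum with LIF on gelatin. What the deltaFT deletion removes is not spelled out in the labels. The 4 TXY samples came from male J1 mESC carrying an inducible Xist on the X. Of these, TXY WT and TXY deltaRepA, which lacks the RepA region of Xist, were each grown with doxycycline (dox, 2 ug/mL for 48 hours) or without it. Each female line had 2 libraries, and its list (IDR list) kept peaks reproducible between them at an irreproducible discovery rate under 0.05. Each TXY condition had 1 list from merged libraries. The mESC source label reads as neural progenitors, and the descriptions of the TXY samples with dox point to a list without dox; the titles were followed in both cases. The labelled cell types were not checked against marker genes, as gene positions of the build were not used here.

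The lists differed in how strictly they were called, which bears on every count given here. The IDR lists held 37270 peaks in deltaFT NPC, 41126 in wild-type NPC and 28907 in mESC. The TXY lists held between 125498 and 142526 peaks and reached down to a −log10 p of about 2, and the library lists of the female lines down to about 3. A site could therefore enter a TXY list at a strength that the mESC IDR list would not have admitted. Differences in sex and line between the mESC and TXY samples cannot be told apart from the difference in calling.

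The NPC sites missing from the mESC IDR list fell mostly at the extremes of the TXY lists. Of 14819 autosomal sites present in both NPC lines and absent from the mESC IDR list, 4322 (29.2%) were in all 4 TXY lists and 6836 (46.1%) in none. Only 1416 were in a single TXY list, 1048 in 2 and 1197 in 3. Sites just outside the choice, in 3 of 4 lists, most often missed TXY deltaRepA without dox (501 sites) and least often TXY WT without dox (79 sites). By comparison, 11186 of the 11362 sites that did overlap an mESC IDR peak (98.5%) were in all 4 TXY lists. The 11186 sites in all 7 lists and the 6836 in no stem cell list are used below to place the 4322.

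**Figure D1:**
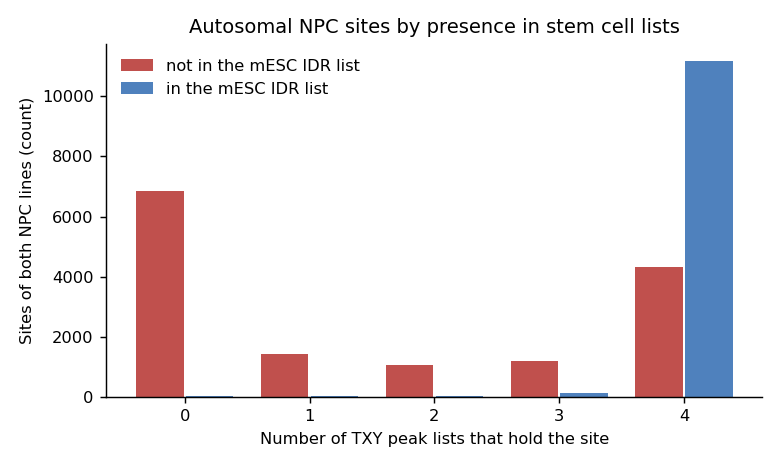
Number of autosomal sites of both NPC lines (vertical axis) by the number of TXY lists that held them (horizontal axis), for sites not in the mESC IDR list and sites in it. The 4322 chosen sites are the bar at 4 lists among sites not in the mESC IDR list, which also have a larger group of 6836 at 0 lists.

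Most of the sites had a peak in at least 1 library of the female mESC. A peak of at least 1 mESC library list overlapped 3275 of the 4322 sites, or 75.8% (74.5% to 77.0%), where 47.5% of all autosomal wild-type NPC peaks did so. Among sites in all 7 lists every site had one (11186 of 11186), and among sites in no stem cell list 112 of 6836 did (1.64%, 1.35% to 1.97%). Library 1 held 60.8% of the sites and library 2 held 60.2%. Both libraries held 1954 sites (45.2%), a single library 1321 (30.6%), and neither 1047 (24.2%). The library lists fed the IDR list that the choice used, so these shares describe how near the sites came to it and test nothing.

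Where an mESC library had a peak at such a site, it was a middling one. Its median −log10 p was 6.97 in library 1 and 8.08 in library 2, which lay at the 52.2 and 54.7 percentile of those lists. Sites in all 7 lists had medians of 14.6 and 16.3, and the few library peaks at sites in no stem cell list 5.09 and 5.46. Of the 1954 sites with a peak in both libraries, 1095 (56.0%) reached at least the 10th percentile of the mESC IDR list in each. Its median was reached in each by 20 (1.02%). The IDR list was drawn from these libraries, and the choice left out every site on it. These lower strengths are therefore largely built into the choice and test nothing.

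The peaks of the TXY lists at these sites were weaker than those at sites in all 7 lists, and lay above the median of each TXY list. The choice required a peak in all 4 TXY lists, while a list's median is taken over all its peaks, so the place above the median was largely set by the choice. Fold enrichment and −log10 p are the authors' values and are not comparable between lists, so each peak was placed as a percentile by −log10 p within its own list. The median site lay at the 76.6 percentile in TXY WT with dox and 78.7 without it. In TXY deltaRepA it lay at 74.2 with dox and 70.2 without. The corresponding medians for sites in all 7 lists were 93.7, 93.5, 92.1 and 91.0. Between 78.9% and 91.9% of the sites lay above the median of their list, depending on the list. The chosen sites lacked an mESC IDR peak and the sites in all 7 lists had one, so the gap between them is partly built into the choice. The name weakly open therefore only describes the sites beside those in all 7 lists. It does not hold against the TXY lists as a whole. As the lists differ in length, no change with dox is read from these ranks.

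The sites were also weaker than sites in all 7 lists at a fixed threshold, a gap that the choice by mESC peaks likewise favoured. A −log10 q of at least 5 was reached by 70.7% of the sites in TXY WT with dox, where 77.2% of all wild-type NPC peaks present in that list reached it. The share was 86.1% in TXY WT without dox (82.8% of all), 64.3% in TXY deltaRepA with dox (73.6%) and 61.9% without it (73.9%). Among sites in all 7 lists the shares were 98.1%, 99.6%, 94.3% and 93.5% in the same order of lists. In 3 of the 4 lists the sites were thus below the background of NPC peaks and in TXY WT without dox above it. All 4 lists passed the threshold at once for 1928 sites.

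The TXY peak was strongest where the mESC libraries also had one. In TXY WT without dox the median percentile was 83.8 for sites found in both mESC libraries, 75.5 for those in a single library and 69.0 for those in neither. In TXY deltaRepA without dox these medians were 76.8, 67.2 and 60.3. The same order, both libraries over 1 library over neither, was found in the 2 lists with dox.

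A minority of the sites, called shoulders here, lay under a stem cell peak that they shared with a neighbour. At 534 of the 4322 sites (3788 had none) the overlapping TXY peak in at least 1 list also covered a neighbouring mESC IDR peak, and at 353 it did so in all 4 lists. This split was made after the values were seen. The 534 sites were narrow in wild-type NPC, with a median width of 265 bp against 402 bp for the 3788 with a TXY peak of their own. Of the 4322 sites, 59 had an mESC IDR peak within 50 bp and 515 within 500 bp, while of the 6836 sites in no stem cell list none had one within 50 bp and 56 within 500 bp. Sites in no stem cell list could not lie under a TXY peak that reaches a neighbour, so the choice partly set these counts. On the other side of the limit, 29 sites in all 7 lists shared under 50 bp with their mESC peak. The 1 bp rule thus placed a small number of neighbouring sites on either side.

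The summits of the TXY peaks showed where the stem cell signal lay. The choice did not use summits, but it required a TXY peak to overlap each site. That favours a summit inside the NPC peak, for the chosen sites and for sites in all 7 lists alike. How far these shares exceed what overlap alone would give was not tested. In TXY WT without dox the summit lay inside the NPC peak at 81.1% of the 4322 sites (79.9% to 82.3%), less often than at sites in all 7 lists, where it was 89.9% (89.4% to 90.5%). With a TXY peak of their own, 89.9% of the sites (88.9% to 90.8%) held that summit, at a median of 62.5 bp from the centre of the NPC peak, against 81.8 bp for sites in all 7 lists. The sites in all 7 lists were not split in this way, and leaving out shared peaks favours a central summit. The NPC peaks of these sets had median widths of 402 and 586 bp, which bears on the distances. In the other 3 lists the shares were 87.8% to 89.97% for sites with their own TXY peak and 89.5% to 90.4% for those in all 7 lists. At the 534 shoulder sites the summit lay inside in 19.1% (15.9% to 22.7%), at a median of 462 bp. Since those were picked by a TXY peak that reaches a neighbour, a distant summit is partly built into them. Summits of all 4 lists lay inside 68.5% of the 4322 sites and inside 77.2% of the 3788 (75.8% to 78.5%), both below the 84.1% of sites in all 7 lists (83.4% to 84.7%).

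**Figure D2:**
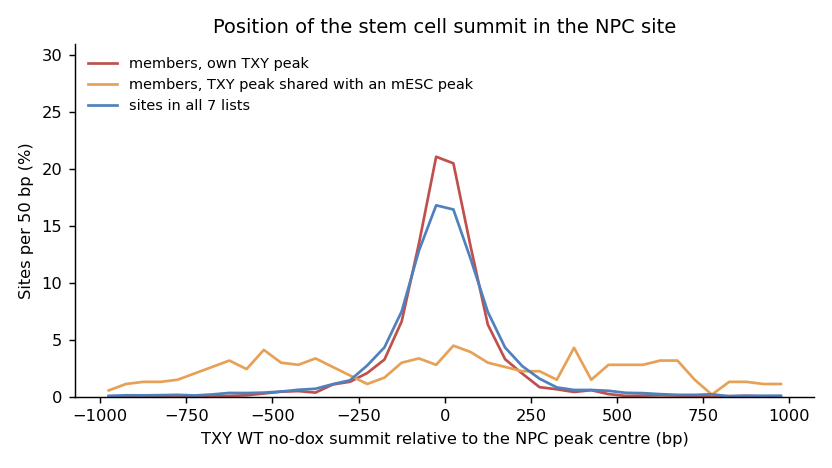
Distance of the TXY WT no-dox summit from the centre of the wild-type NPC peak (horizontal axis, bp, shown to 1000 bp either way) against the share of sites per 50 bp (vertical axis, %). Sites with a TXY peak of their own cluster at the centre like sites in all 7 lists, with medians of 62.5 and 81.8 bp, while the 534 sites under a shared TXY peak spread widely.

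**Figure D3:**
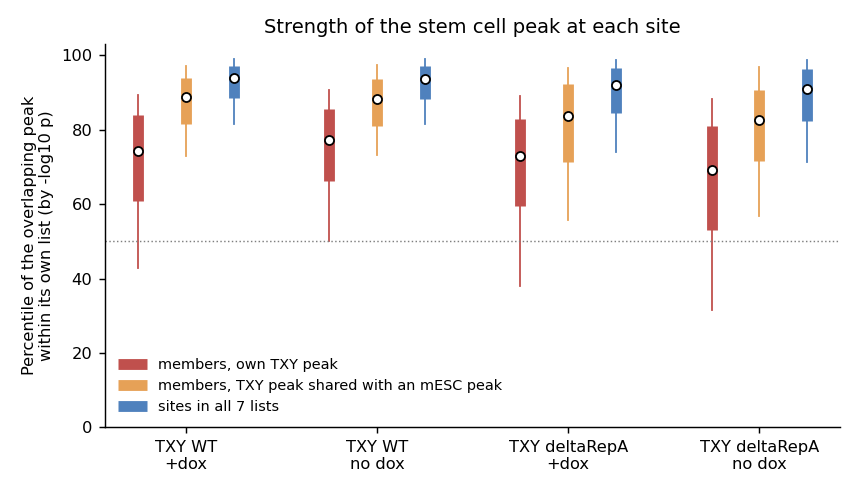
Percentile of the overlapping TXY peak within its own list (vertical axis, by −log10 p) in each of the 4 lists (horizontal axis). Circles are medians, thick bars the middle 50% and thin lines the 10th to 90th percentile of sites, and the dotted line is the list's 50th percentile. Sites with an own TXY peak have medians from 69.1 to 77.1, and sites in all 7 lists from 91.0 to 93.7.

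Ordered by their lowest percentile over the 4 lists, sites gave way to all-7-list sites as the stem cell peak became stronger. As presence in the mESC IDR list parted the sets, this order is partly built in as well. Among sites in both NPC lines and all 4 TXY lists that were either chosen or in all 7 lists, the chosen made up 89.3% (84.4% to 93.1%) of those at or below the 10th percentile. The share was 62.7% between the 50th and 60th and 3.598% (3.11% to 4.14%) above the 90th. The share of chosen sites seen in an mESC library went the other way, with 49.5% in the lowest class and 91.1% between the 80th and 90th percentile. It was 79.3% above the 90th, where 100 of 188 sites (53.2%) were shoulders. With an own TXY peak, 88 sites exceeded the 90th percentile in every list, 78 of them were in both mESC libraries, and 1 was in neither.

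**Figure D4:**
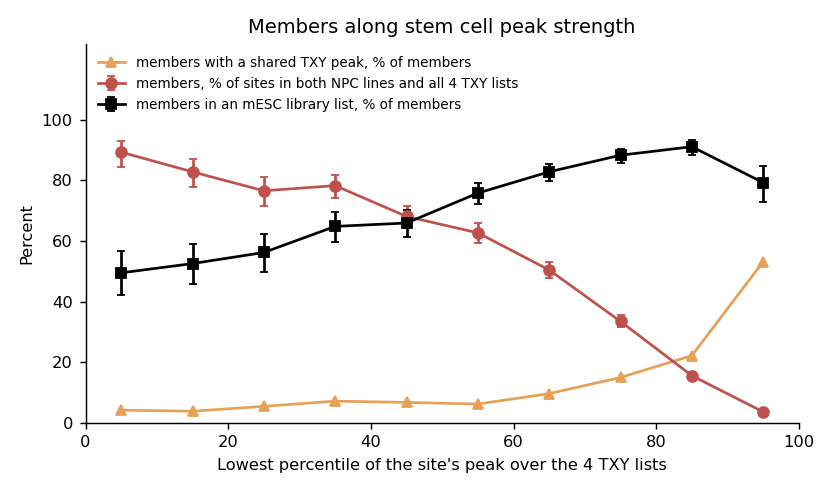
Shares in percent (vertical axis) by the lowest percentile of a site's peak over the 4 TXY lists, in classes of 10 (horizontal axis). Circles give the chosen sites among all sites of both NPC lines and 4 TXY lists with or without an mESC IDR peak, squares the chosen sites found in an mESC library list, with 95% exact intervals, and triangles the chosen sites under a shared TXY peak. The first falls to 3.598% while the third rises to 53.2% in the top class.

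The 10 sites with the highest minimum over the TXY lists were all shoulders. The highest, on chromosome 1 at 177623325 to 177623454 (coordinates in mm9), lay at the 99.7 percentile or above in every list yet had a wild-type NPC peak of 130 bp and no peak in either mESC library. Its deltaFT NPC peak held 1864 reads and its wild-type peak 132, or 1469 and 1015 reads per kb. The strongest sites with a TXY peak of their own were named by a rule added after the values were seen. First came chromosome 1 at 54541566 to 54542146, with percentiles of 99.2 and 98.4 in TXY WT with and without dox, and 99.5 in both TXY deltaRepA lists. It had 251 reads in deltaFT NPC and 562 in wild-type NPC, and a peak in both mESC libraries. Next was chromosome 2 at 106367182 to 106367530, whose lowest percentile was 97.8, with a peak in mESC library 1 alone.

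At the other end were sites that a TXY list barely held. On chromosome 8 at 46154159 to 46154645 the peak of TXY deltaRepA with dox lay at the 0.12 percentile, with a −log10 q of 0.47, while the other lists placed theirs between 70.6 and 80.6. On chromosome 3 at 109739004 to 109739699 it was TXY WT with dox, at 0.19, with 17.1, 24.0 and 64.2 in the others. In each of the 5 lowest sites 1 list lay below the 0.31 percentile and the other 3 at 17.1 or above.

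In wild-type progenitors the sites were about as open as sites in no stem cell list, and less open than sites in all 7 lists. The median wild-type NPC level was 472 reads per kb of peak (middle 50% of sites 364 to 635), against 468 for sites in no stem cell list and 632 for sites in all 7 lists. In deltaFT NPC the medians were 463, 433 and 688 reads per kb. The sites were the narrowest of the 3 sets, with a median of 387 bp for the sites, 426 bp for those in no stem cell list and 586 bp for those in all 7 lists. By wild-type NPC reads per peak, the sites found in both lines were put in 10 equal classes. The chosen sites were 24.9% of the lowest class (23 to 94 reads) and 5.16% of the highest (723 reads or more). Over all classes they were 4322 of 26181 sites. These reads were not divided by width. In 10 equal classes by width, the chosen sites were 28.8% of the narrowest (100 to 232 bp) and 7.79% of the widest (818 bp or more). The choice required an NPC peak in both lines but set no level. It did part the sites from those in all 7 lists by a 1 bp overlap with an mESC peak, which a wide peak meets more readily. The gaps in width and level between these sets may thus be partly built into the choice.

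The order of the sites by strength was more alike within a cell type than between cell types, but the measure changed with the cell type. Strength was reads per kb in NPC and a percentile by −log10 p in TXY, so cell type and measure cannot be told apart. Across the 4322 sites, Spearman's rho between the reads per kb of deltaFT and wild-type NPC was 0.55, and between TXY lists it ran from 0.56 to 0.73. Across the 11186 sites in all 7 lists these were 0.78 and 0.79 to 0.89. Between the wild-type NPC level and the TXY percentiles it ran from 0.02 to 0.10, and with the deltaFT NPC level from 0.12 to 0.19. Across the sites in all 7 lists the same ranges were 0.50 to 0.52 and 0.51 to 0.54. Each of these correlations was lower among the 4322 sites. These are descriptions across sites of the same libraries, which share peak width and depth, and the narrower range of strengths among the chosen sites was not adjusted for.

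The site with the most wild-type NPC reads stood far above the rest. Chromosome 17 at 3083853 to 3084588 had 4106 reads in deltaFT NPC and 12352 in wild-type NPC, or 5656 and 16783 reads per kb. Nearly all of its allelic reads came from the second-listed allele: 30 first-allele and 3150 second-allele reads in deltaFT NPC, and 50 and 9099 in wild-type NPC. It had a peak in both mESC libraries and stood between the 93.4 and 97.9 percentile of the TXY lists.

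The next 2 sites by reads were balanced between alleles. Chromosome 2 at 97318380 to 97319503 had 796 reads in deltaFT NPC and 1994 in wild-type NPC, with 49.4% and 50.1% first-allele reads. Chromosome 2 at 179271953 to 179272986 had 970 and 1745 reads, but after division by width the levels were 1760 and 1688 reads per kb. In the TXY lists its percentiles were 9.38 and 70.8 in WT with and without dox, and 15.5 and 56.5 in deltaRepA. Chromosome 16 at 84774223 to 84775226, with 1552 and 1464 reads, had none assigned to an allele. Of the 10 sites with most reads, only chromosome 1 at 106643194 to 106643890 had no peak in either mESC library, and it held 600 and 1738 reads.

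Between the NPC lines the sites differed about as often as all sites found in both lines. Reads were counted in each line over that line's own peak, so the regions compared differ in their bounds, and at 7.29% of the sites the deltaFT peak also matched another wild-type peak. The ratio is therefore one of read density in separately called peaks. After the median of all 26181 matched autosomal peaks was set to 0, the median log2 ratio of reads per bp, deltaFT over wild type, was -0.011 (-0.033 to 0.0065). It was 0.067 for sites in all 7 lists and -0.11 for sites in no stem cell list. At least 2-fold higher in deltaFT were 104 of the 4322 sites (2.41%, background 2.38%), and at least 2-fold lower 176 (4.07%, background 3.84%). Both shares were close to the background, but the comparison sets differed. Sites in all 7 lists were at least 2-fold higher in 2.01% and lower in 1.27%, and sites in no stem cell list in 2.37% and 6.93%. Of the sites with their own TXY peak, 1.95% were higher and 4.41% lower, and of the shoulders 5.62% and 1.69%. Among sites with their own TXY peak the median was -0.052, and among the shoulders 0.22. At the shoulders the deltaFT peak was wider, with a median of 518 bp against 265 bp in wild type, and 33.0% of them shared their deltaFT peak with another wild-type peak. There is 1 line of each kind, so these values have no replicate check.

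Among sites with at least 100 wild-type NPC reads, some differed strongly between the lines. The lowest ratio was on chromosome 6 at 122552263 to 122552548, with 61 reads in deltaFT NPC and 314 in wild-type NPC, a log2 ratio of -2.62 per bp. On chromosome 7 at 69127077 to 69127679 the reads were 131 and 978, with a log2 ratio of -2.38. On chromosome 1 at 106650917 to 106651524 they were 64 and 533, or -2.19. This site lay 7026 bp from the site at 106643194, which had a log2 ratio of -1.24 and likewise no mESC library peak. All 5 sites with the lowest ratios lacked a peak in both mESC libraries, as did 3 of the 5 with the highest ratios and 24.2% of all the sites. The highest ratio was on chromosome 8 at 114436669 to 114437351, with 876 reads in deltaFT NPC and 191 in wild-type NPC, a log2 ratio of 2.07. It was followed by chromosome 11 at 88408432 to 88408795, with 471 and 104 reads.

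The alleles, which the choice did not use, were balanced at most sites. At sites with at least 10 allelic reads, the first-listed allele had a median share of 49.8% in deltaFT NPC (3720 sites) and 50.2% in wild-type NPC (3607 sites). An unequal site, with a share of at most 30% or at least 70%, was found 371 times in deltaFT NPC (9.97%, 9.03% to 10.98%) and 398 times in wild-type NPC (11.03%, 10.03% to 12.1%). Over all autosomal sites of both NPC lines the share was 10.2% and 10.7%, so the sites were close to the background.

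They lay between the 2 sets used for comparison. Sites in no stem cell list were unequal more often, at 15.2% in deltaFT NPC and 15.9% in wild-type NPC, and sites in all 7 lists less often, at 6.09% and 6.33%. The intervals of the 3 sets did not overlap in either line. With at least 50 allelic reads, where counting error is smaller, the order held: 7.46% and 7.74% for the sites, 12.6% and 13.3% for those in no stem cell list, and 4.44% and 4.17% for those in all 7 lists. Sites of a chromosome are not independent, and these intervals cover counting error alone.

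Some of the imbalance recurred in both lines. Of 3549 sites with enough allelic reads in both, 104 (2.93%) were unequal the same way, 42 with few and 62 with many first-allele reads, and 8 the opposite way. These were 30.95% of the 336 sites among them unequal in deltaFT NPC and 27.7% of the 375 unequal in wild-type NPC. The same count was 6.03% of sites in no stem cell list and 1.44% of sites in all 7 lists. The share over all autosomal sites of both NPC lines is not given here, so no excess is read from these counts. Both lines come from the same cross. Sites with at least 50 allelic reads in each line were ordered by the higher of their first-allele shares in the 2 lines. By this order the site after that on chromosome 17 was on chromosome 1 at 74863114 to 74863686, with 4 first-allele and 212 second-allele reads in deltaFT NPC (1.85%, 0.51% to 4.67%) and 3 and 121 in wild-type NPC (2.42%, 0.50% to 6.91%). At the opposite end, chromosome 2 at 168504277 to 168505166 had first-allele reads only, 105 in deltaFT NPC and 62 in wild-type NPC. The other 4 sites named for many first-allele reads had first-allele shares of at least 91.7% in both lines.

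The sites were spread over all autosomes, with modest differences. They made up between 7.16% of wild-type NPC peaks on chromosome 12 and 13.6% on chromosome 19. Among sites in both NPC lines and all 4 TXY lists that were either chosen or in all 7 lists, they made up 27.9% (27.2% to 28.6%) over all autosomes, 20.8% (17.7% to 24.2%) on chromosome 12 and 34.7% (31.9% to 37.6%) on chromosome 1. The intervals of these chromosomes did not include the share over all autosomes. Neither did those of chromosomes 7 (23.4%), 9 (24.2%) and 11 (23.9%). On chromosome 12 the share was lowest between 80 and 100 Mb, at 15.0% (9.25% to 22.4%), and between 60 and 80 Mb, at 15.2%, next to 31.5% (21.1% to 43.4%) in the first 20 Mb. The intervals were not adjusted for looking at 19 autosomes and several windows. A site on an mESC IDR peak could not be chosen, so these shares also depend on the mESC list. Such peaks overlapped 28.4% of wild-type NPC peaks on chromosome 1, 37.8% on 7, 36.3% on 9, 40.0% on 11 and 32.9% on 12. On chromosome 1, fewer of the sites were in an mESC library (65.6%) than on any other autosome.

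**Figure D5:**
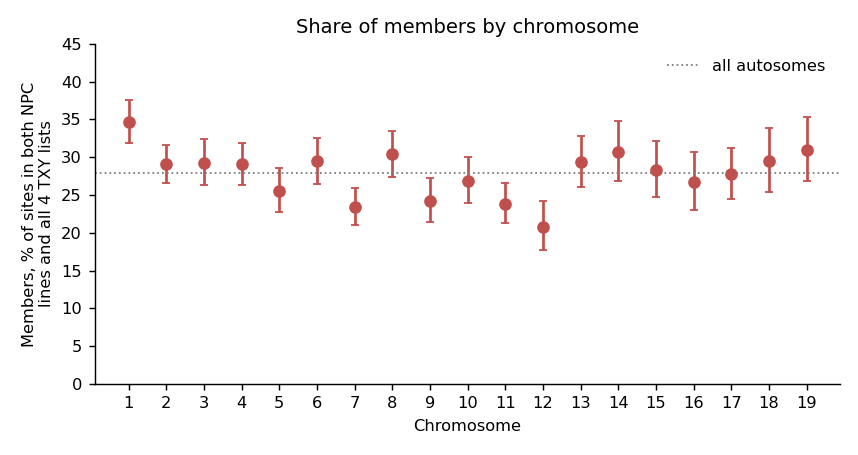
Share of chosen sites among sites in both NPC lines and all 4 TXY lists (vertical axis, %) by autosome (horizontal axis), with 95% exact intervals and the share over all autosomes as a dotted line. Chromosome 12 lies lowest at 20.8% and chromosome 1 highest at 34.7%.

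A neighbour of the same kind lay within 50 kb of 32.0% of the sites (30.6% to 33.4%), of 46.1% of sites in no stem cell list and of 61.7% of sites in all 7 lists. The sets differ in size, and a share of this kind depends on how many sites a set holds. The longest runs held 6 sites, at 70420164 to 70534531 on chromosome 8 and 19893527 to 19946580 on chromosome 7. Nearby mESC peaks were more frequent than around sites that stem cells lacked: the median gap to the nearest mESC IDR peak was 18076 bp, against 31520 bp for sites in no stem cell list. That set could overlap no TXY peak, and TXY peaks can reach a neighbouring mESC peak, so this difference is partly built into the choice.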

How the data were processed

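The submitters' processing notes name cutadapt, Bowtie2 and MACS2, and mm9 as the genome build. Tool versions and settings, duplicate handling and any Tn5 read shift were not stated in the labels. In the IDR lists the authors deposited, each peak has a count of its reads and a count for each allele. The allele columns carry no strain name, and the labels do not say if both libraries were summed. The deposited library and TXY lists give fold enrichment (a ratio) and −log10 p and q values. In the deposited IDR lists a name field joins other values, the −log10 p of both libraries and the IDR, which was under 0.05 throughout. Summit offsets were also deposited by the authors.

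Overlaps of at least 1 bp, largest-overlap matches, percentiles and read densities were computed in Python (version 3.11.15) with scipy (1.17.1), pandas (2.3.3) and numpy (2.4.6). The overlap and fold steps were tested on simulated data. Shares carry exact Clopper-Pearson 95% intervals and medians order-statistic intervals, which cover counting error only. With 1 sample per group no p-value was computed. Autosomal reads in IDR peaks totalled 10845382 in deltaFT NPC, 10724324 in wild-type NPC and 6176798 in mESC. The depth behind the TXY lists is unknown. The sites named were the 10 with most wild-type NPC reads, the 10 highest and 5 lowest by their lowest TXY percentile, the 5 most different between NPC lines each way (at least 100 wild-type reads) and the 5 most unequal in alleles each way (at least 50 allelic reads in both lines). No annotation or genome of mm9 was used here, so no gene, marker or sequence is given. The sites and rules were chosen with earlier results of these data known.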

Additional observations from a re-analysis of the deposited data

How the results depend on the processing

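Alternatives were computed for the chosen sites and not for the sets they were compared with. The count was 4322. It was 4352 with overlaps of at least 50% of the NPC peak, 4256 with at least 50 reads, 5096 with the no-dox TXY lists alone, and 4309 to 4322 when a library of either NPC line was left out. It was 1928 with TXY peaks of −log10 q at least 5 and 1047 when sites in an mESC library list were also left out. The share in an mESC library list was 85.5% with 50% overlap, which also admits sites that touch an mESC peak. It was 87.3% with the stricter TXY peaks, 69.96% with the no-dox lists alone and 41.8% with library peaks of −log10 q at least 5. With either mESC library left out it was 60.2% to 60.8%.

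The median percentiles, in TXY WT with and without dox and then TXY deltaRepA with and without dox, were 81.4, 82.9, 78.5 and 76.8 with 50% overlap. They were 85.0, 86.5, 84.4 and 82.7 with the stricter TXY peaks, as that threshold removes weak peaks, and 64.1, 69.0, 65.0 and 60.3 without sites in an mESC library. With the no-dox lists alone they were 76.2 in WT and 67.8 in deltaRepA. Without shoulder sites they were 74.2 and 77.1 in WT with and without dox and 69.1 in deltaRepA without dox. The wild-type NPC level was 492 reads per kb with 50% overlap and 482 with the stricter TXY peaks. The median log2 ratio of deltaFT over wild type was 0.0080 with the stricter TXY peaks, -0.038 without sites in an mESC library and -0.052 without shoulders. The median first-allele share was 51.1% without sites in an mESC library. The share with a neighbour was 17.6% with the stricter TXY peaks, 10.8% without sites in an mESC library, 35.4% with the no-dox lists, 29.0% without shoulders and 17.0% within 20 kb. Of 68 values under alternatives, 32 stayed within the interval of the reported value or within 1.5 times the count. These 32 include the counts with an NPC library peak required, which could hardly move. The causes of the shifts in the rest were not tested. The split by shoulders and the limit of 50 allelic reads were chosen after seeing the data. Annotation and sequence alternatives were not run, as no mm9 genome was used here. No paired analysis was possible because each group is 1 sample.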
